A study of Homo sapiens with 6 samples.

Results

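Control-only TLE3 regions inside gene bodies are stretches of the genome where a TLE3 peak was found in both siNS libraries, in neither siFOXA1 library, and within the span of a protein-coding gene but more than 1 kb from any protein-coding gene end. They number 6175 of the 72272 regions obtained by merging peaks that share at least 1 bp across the 4 lists, or 8.54%. The regions were chosen by the presence and absence of peaks in these same lists, so their absence from siFOXA1 is how they are defined and not a result. The data come from chromatin immunoprecipitation and sequencing (ChIP-seq) with an antibody to TLE3 in MDA-MB-453, an established human breast cancer line of luminal, androgen receptor-positive type. Libraries siFOXA1 1 and siFOXA1 2 came from cells in which FOXA1 was transiently silenced, and siNS 1 and siNS 2 from cells without that silencing. All 4 were made in this single line, and nothing else in the labels distinguishes the groups. The series asks whether TLE3 needs FOXA1 to bind. The lists hold positions and a score per peak but no reads, so depth is unknown and neither FOXA1 nor any luminal marker could be checked as RNA or protein.

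TLE3 belongs to the Groucho/TLE corepressors, which lack a DNA-binding domain and are recruited by factors such as TCF/LEF, HES, RUNX and forkhead proteins. They recruit histone deacetylases and are known as brakes on Wnt and Notch target genes. FOXA1 is a pioneer factor that opens enhancers of luminal breast cells, many of them in introns. Gene bodies hold such intronic enhancers, and they also hold alternative promoters and the promoters of long non-coding RNAs (lncRNAs), from which transcription starts downstream of the outermost gene end.

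The siNS lists did not behave alike, which touches every comparison that follows. Among regions inside gene bodies that held a peak of both siNS lists (the siNS consensus), those that also had a siFOXA1 peak, called kept here, had the higher median rank in siNS 2. Their median score lay at the 82.5th percentile of the siNS 1 list and at the 91.5th of the siNS 2 list. For the control-only regions the order was the reverse, at the 63.8th and the 58.0th percentile, and 62.7% of them ranked higher in siNS 1. The contrasts at annotated starts and the counts of genes are therefore also given with 1 siNS library left out.

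Some control-only regions cover an annotated transcription start inside the gene body, and the sequences before those starts show what kind of DNA this is. The 6 below are the 250 bases before a RefSeq start (GRCh38.p14, the assembly of the hg38 lists) that lies within a control-only region, for the 6 strongest such regions by score, chosen after the values were seen. They are written 5′ to 3′ on the strand of the transcript. Capitals mark exact matches on either strand to the GC box GGGCGG, the forkhead motifs TGTTTAC and TGTTTGC, the ETS motif CCGGAAG, the CREB motif TGACGTCA and the NRF1 motif.
SSTR5, chr16:1078576-1078825, plus strand: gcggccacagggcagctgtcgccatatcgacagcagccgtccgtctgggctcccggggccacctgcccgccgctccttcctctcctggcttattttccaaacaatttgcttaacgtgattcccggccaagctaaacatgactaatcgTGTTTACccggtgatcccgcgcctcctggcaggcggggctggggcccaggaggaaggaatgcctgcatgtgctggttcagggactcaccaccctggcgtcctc
LOC105378353, chr10:71348068-71348317, minus strand: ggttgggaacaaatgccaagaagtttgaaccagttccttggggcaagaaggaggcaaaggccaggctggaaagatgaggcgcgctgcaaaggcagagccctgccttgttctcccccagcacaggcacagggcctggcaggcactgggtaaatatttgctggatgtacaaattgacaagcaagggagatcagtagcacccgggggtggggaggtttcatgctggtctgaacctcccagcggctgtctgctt
C17orf58, chr17:67993607-67993856, minus strand: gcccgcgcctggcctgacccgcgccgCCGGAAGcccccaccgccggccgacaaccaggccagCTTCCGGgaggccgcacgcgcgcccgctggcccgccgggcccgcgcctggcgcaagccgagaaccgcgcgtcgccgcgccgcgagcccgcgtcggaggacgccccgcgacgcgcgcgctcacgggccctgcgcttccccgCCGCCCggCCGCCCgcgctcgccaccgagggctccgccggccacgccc
PRKAR1A, chr17:68512180-68512429, plus strand: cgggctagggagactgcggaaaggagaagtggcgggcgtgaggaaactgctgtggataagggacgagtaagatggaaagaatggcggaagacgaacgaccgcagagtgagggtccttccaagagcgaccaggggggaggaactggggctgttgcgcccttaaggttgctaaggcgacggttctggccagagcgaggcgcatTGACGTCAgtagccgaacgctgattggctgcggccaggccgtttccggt
FUT8, chr14:65412480-65412729, plus strand: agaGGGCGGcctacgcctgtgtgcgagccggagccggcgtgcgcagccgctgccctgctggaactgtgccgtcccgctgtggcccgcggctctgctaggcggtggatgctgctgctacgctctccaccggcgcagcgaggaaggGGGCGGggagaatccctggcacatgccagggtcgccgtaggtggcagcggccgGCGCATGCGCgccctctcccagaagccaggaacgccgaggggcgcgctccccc
PAX6, chr11:31812721-31812970, minus strand: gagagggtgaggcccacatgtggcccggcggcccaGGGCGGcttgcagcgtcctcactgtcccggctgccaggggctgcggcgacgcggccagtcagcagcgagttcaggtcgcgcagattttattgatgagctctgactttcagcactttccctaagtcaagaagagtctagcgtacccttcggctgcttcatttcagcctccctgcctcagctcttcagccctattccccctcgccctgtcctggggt

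These 6 stretches differed widely in composition. The C17orf58 stretch was 84.8% G or C with 52 CpG dinucleotides, 2 GC boxes and 2 ETS matches. That of FUT8, which encodes the core fucosyltransferase, was 74.0% G or C with 29 CpG, 2 GC boxes and 1 NRF1 match. That of PRKAR1A, the regulatory subunit of protein kinase A, held 1 CREB match and 21 CpG. The SSTR5 stretch, before the start of a somatostatin receptor gene, was the only 1 of the 6 with a forkhead match. The stretch of the lncRNA LOC105378353, inside the nucleoside transporter gene SLC29A3, was 56.4% G or C with 4 CpG and no marked motif. The region at PAX6, a paired-box factor gene, scored 149 in siNS 1 and 105 in siNS 2, and the region at SSTR5 scored 289 and 253.

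For contrast, the 2 strongest kept regions that hold an annotated start gave these stretches, with capitals as above.
ATOSA, chr15:52678758-52679007, minus strand: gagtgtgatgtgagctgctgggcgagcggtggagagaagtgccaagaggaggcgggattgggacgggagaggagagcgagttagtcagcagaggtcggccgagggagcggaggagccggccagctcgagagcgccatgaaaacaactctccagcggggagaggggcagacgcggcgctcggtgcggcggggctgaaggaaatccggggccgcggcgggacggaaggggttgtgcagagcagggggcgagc
TP73-AS3, chr1:3668946-3669195, minus strand: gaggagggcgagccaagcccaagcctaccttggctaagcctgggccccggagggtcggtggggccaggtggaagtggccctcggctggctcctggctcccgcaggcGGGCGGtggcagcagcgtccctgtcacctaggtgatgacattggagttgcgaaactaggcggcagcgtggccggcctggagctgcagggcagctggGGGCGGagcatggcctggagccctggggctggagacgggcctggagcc

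The ATOSA stretch was 68.4% G or C with 24 CpG and no marked motif, and that of TP73-AS3, an lncRNA start inside the p53-family gene TP73, was 71.2% G or C with 2 GC boxes. The kept region at ATOSA scored 611 and 443 in siNS 1 and 2, and 28.9 and 15.2 in siFOXA1 1 and 2. The kept region at TP73-AS3 scored 535 and 360 in siNS and 95.9 and 109 in siFOXA1. Scores of different lists have no known common scale, so these values do not measure a change in binding. CpG-rich starts thus occurred in both classes, and single stretches did not separate them.

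Counted over all regions, annotated starts were more frequent under control-only regions than under kept ones. Among 5951 control-only regions on chromosomes 1 to 7, 9 to 22 and X, 1071 overlapped the promoter window of a RefSeq start (250 bases before to 50 after it), or 18.0% (exact 95% binomial interval 17.0 to 19.0%). Of 1832 kept regions inside gene bodies 112 did, or 6.11% (5.06 to 7.31%), and of 1156 regions with a peak in all 4 libraries 60, or 5.19%. The size of this contrast rested on both siNS libraries: without siNS 1 the shares were 8.65% of 13890 control-only and 3.94% of 3478 kept regions, and without siNS 2 they were 8.5% of 15408 (8.06 to 8.95%) and 5.93% of 1854 (4.9 to 7.11%). At the control-only regions, 946 held a start of a protein-coding gene, 273 an lncRNA start and 148 both. Control-only regions between genes overlapped a start in 7.9% of cases and those within 1 kb of a gene end in 74.2%, a place that the definition of those classes fixes. Intervals here cover counting error over regions, which share libraries and are not replicates, so no p-value is given.

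A related contrast lay between the libraries' own lists. It is not independent of the one above, because these same lists defined the classes. Of the peaks inside gene bodies, 8.19% in siNS 1 and 7.68% in siNS 2 overlapped an annotated start, against 2.01% in siFOXA1 1 and 1.59% in siFOXA1 2. The group means were 7.93% ± 0.361 for siNS and 1.80% ± 0.297 for siFOXA1 (SD, n = 2 each), and the groups did not overlap. With every list reduced to its 12249 highest-scoring peaks, the shares were 21.6% and 10.7% in siNS 1 and 2 and 2.01% and 1.67% in siFOXA1. The groups did not overlap at equal list length either, but siNS 1 and siNS 2 then lay farther apart than siNS 2 and siFOXA1 1. Peaks inside gene bodies also lay nearer to a gene end in siNS, with medians of 12.3 kb and 18.4 kb, than in siFOXA1, with 36.1 kb and 36.8 kb.

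**Figure D1:**
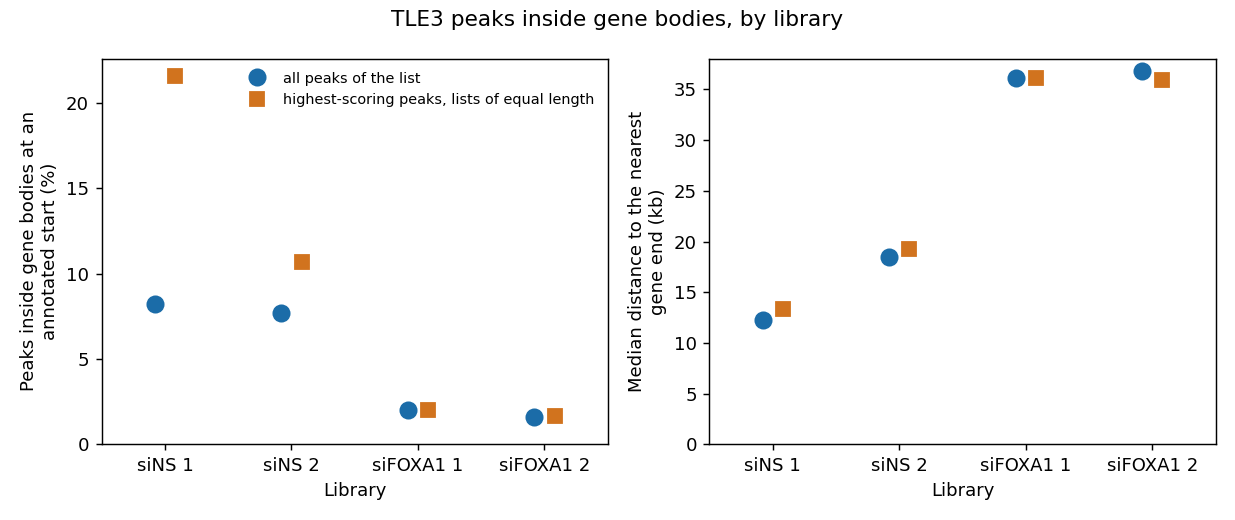
Left, the share (%) of each library's peaks inside gene bodies that overlap an annotated start, and right, their median distance to the nearest gene end (kb). Circles are all peaks of a list and squares its highest-scoring 12249 peaks. Both siNS libraries lie above both siFOXA1 libraries on the left and below them on the right.

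Regions at annotated starts were control-only more often than other siNS consensus regions inside gene bodies. The background is high: of all 24967 siNS consensus regions, wherever they lay, 83.0% had no siFOXA1 peak. Inside gene bodies it was 6175 of 8061 regions, or 76.6% (75.7 to 77.5%), below the background and between the 93.7% near gene ends and the 73.1% between genes. Against each silenced library alone, 81.5% of regions inside gene bodies had no peak in siFOXA1 1 and 80.3% none in siFOXA1 2. Of 1183 regions at a start 90.5% were control-only (88.7 to 92.1%), and of 6600 away from starts 73.9% (72.9 to 75%). The gap depended on the control library: without siNS 1, when a peak of siNS 2 alone counts, the shares were 89.8% and 79.2%, and without siNS 2 they were 92.2% and 89.0%.

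The control-only share differed more across strength than across starts or depth in the gene. The siNS consensus regions inside gene bodies were divided into 4 equal groups by the mean percentile of their scores in both siNS lists. Of the weakest group 94.6% were control-only, of the strongest 49.3% (47.1 to 51.5%). Among the strongest, 74.0% of the 338 regions at a start were control-only, against 43.8% of the 1613 away from starts. The same order held in the weakest group, with 99.5% and 94.0%. It also held in the strongest group against each silenced library, with 79.6% and 52.8% lacking a siFOXA1 1 peak and 79.6% and 51.2% lacking a siFOXA1 2 peak.

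**Figure D2:**
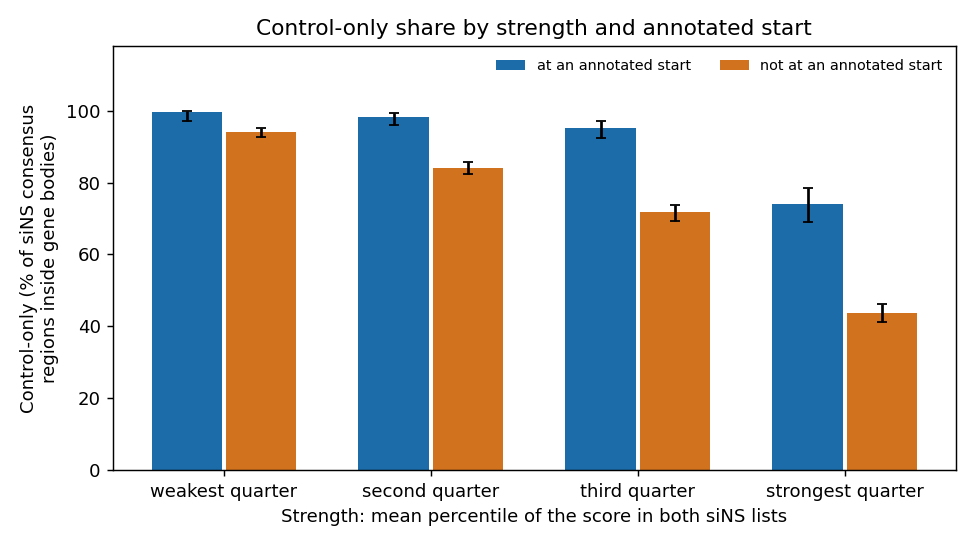
Control-only share (%) of siNS consensus regions inside gene bodies in 4 groups of increasing strength, for regions at and away from annotated starts. Bars are shares and error bars exact 95% binomial intervals. In the strongest group the shares are 74.0% at starts and 43.8% elsewhere.

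In score and width the control-only regions were the lesser ones inside gene bodies. Their median score was 16.3 in siNS 1 and 14.6 in siNS 2, against 36.5 and 59.5 for kept regions. The merged regions spanned 674 bp at the median and at most 5223 bp, against 898 bp for kept regions. The widest lay in FLNA, the actin crosslinker filamin A (chromosome X, 154367481 to 154372703), and scored 87.8 and 69.4. Percentiles in the siNS lists correlated across the 6175 regions with a Pearson coefficient of 0.566 and a Spearman coefficient of 0.60, a description over regions of the same libraries. Control-only regions at a start were wider (1021 bp) than the others (626 bp), and 83.9% of them ranked higher in siNS 1, against 57.9% of those away from starts. Of kept regions, 66.1% of those at a start and 35.3% of those away from starts ranked higher in siNS 1.

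The annotated starts under control-only regions were rich in G, C and CpG. Merging overlapping windows left 7220 start windows inside gene bodies and over 1 kb from gene ends, of which 1219 (16.9%) lay under a control-only region, 136 (1.88%) under a kept one and 5263 (72.9%) under no peak. Median GC content was 67.3%, 62.8% and 48.0% in these 3 sets. The ratio of observed to expected CpG, which is low where CpG has been eroded by methylation, was 0.799, 0.559 and 0.256. Windows under a siFOXA1 peak outside the siNS consensus, 81 in number, resembled those under no peak, with 46.3% GC and a CpG ratio of 0.28. Of the 1524 windows with at least 65% GC, 47.4% lay under a control-only region and 4.0% under a kept one. Of the 3105 windows with less than 50% GC, the shares were 1.74% and 0.548%.

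The GC box, bound by SP and KLF factors, was in 71.0% of control-only windows, 54.4% of kept windows and 29.7% of all 7220. The ETS motif was in 11.6%, 8.82% and 4.43%. The forkhead motif TGTTTAC was in 2.54%, 3.68% and 4.18%, and TGTTTGC in 3.36%, 7.35% and 4.86%. The AP-1 motif TGACTCA was in 3.69%, 8.82% and 6.33%, and the AP-2 motif GCCNNNGGC in 36.4%, 33.1% and 17.5%. Within the windows of 65% GC or more the GC box was in 89.2% of control-only, 85.2% of kept and 76.1% of peak-free windows. There the ETS motif was in 12%, 13.1% and 4.61%, and TGTTTAC in 1.66%, 1.64% and 1.47%. In that class TGTTTGC was in 2.08%, 6.56% and 0.839%. Within the windows of 50 to 65% GC the GC box was in 48.5%, 36.2% and 24.1%, the ETS motif in 12%, 5.17% and 4.41%, and TGTTTAC in 3.39%, 5.17% and 2.9%. How far control-only and kept windows lay apart thus differed between the GC classes, and the kept windows numbered 58 and 61 in these classes. Of the 20 motifs searched on both strands, the full androgen and glucocorticoid receptor site matched no window. GC boxes overlap CpG-rich sequence in general, and a match describes letters and not a bound site.

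Among windows under control-only regions, kept regions and in all, the GATA motif AGATAA was in 3.28%, 5.88% and 13.0%, the RUNX motif TGTGGT in 8.2%, 12.5% and 15.4%, and the TCF/LEF motif CTTTGAT in 1.15%, 0.735% and 3.16%. The HES motif CACGCG was in 17.9%, 12.5% and 7.12%, and the E-box CACGTG in 8.29%, 6.62% and 5.5%. The NFI motif TTGGCA was in 9.19%, 22.8% and 14.8%, the nuclear receptor motif AGGTCA in 8.7%, 14.7% and 15.3%, and the receptor motif AGAACA in 6.89%, 9.56% and 18.8%. RUNX, TCF/LEF, HES and forkhead proteins are recruiters of Groucho/TLE corepressors. Of their motifs only that of HES was more frequent under control-only regions than in all windows. The HES motif itself contains CpG, and median GC was 67.3% in control-only windows against 52.3% in all. The RUNX, TCF/LEF and HES motifs were not compared within GC classes, so whether composition accounts for this order was not tested. CREB, the CTCF core CCACNAGG, Grainyhead (AACCNGTT), the full NFI site and NRF1 were in 2.13%, 6.15%, 1.23%, 0.082% and 1.97% of control-only windows and in 1.01%, 5.17%, 2.05%, 0.0277% and 0.499% of all.

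Depth inside the gene went with the control-only share. Control-only regions lay a median 12830 bp from the nearest gene end, kept regions 19900 bp. Of siNS consensus regions 1 to 2 kb from an end 87.5% were control-only (84.9 to 89.8%), of those 10 to 20 kb away 75% (72.7 to 77.2%) and of those over 100 kb away 69.5% (65.8 to 73.0%). The order was the same against siFOXA1 1 (90.0% in the nearest and 74.6% in the farthest bin) and siFOXA1 2 (90.1% and 74.7%). Leaving out regions at annotated starts changed the shares little, to 86.0% and 67.1%. At the 1 kb limit itself nothing stood out: 76 control-only regions lay up to 100 bp beyond it and 84 control-only regions overlapping a gene up to 100 bp within it. The nearest beyond it were in FGFR4, PNKD and TRADD at 1001, 1002 and 1006 bp, with siNS 1 scores of 9.24, 13.1 and 10.2. Those just within were in SAPCD2, WASL and GNA11 at 999, 996 and 995 bp, with siNS 1 scores of 78.6, 14.6 and 9.36.

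**Figure D3:**
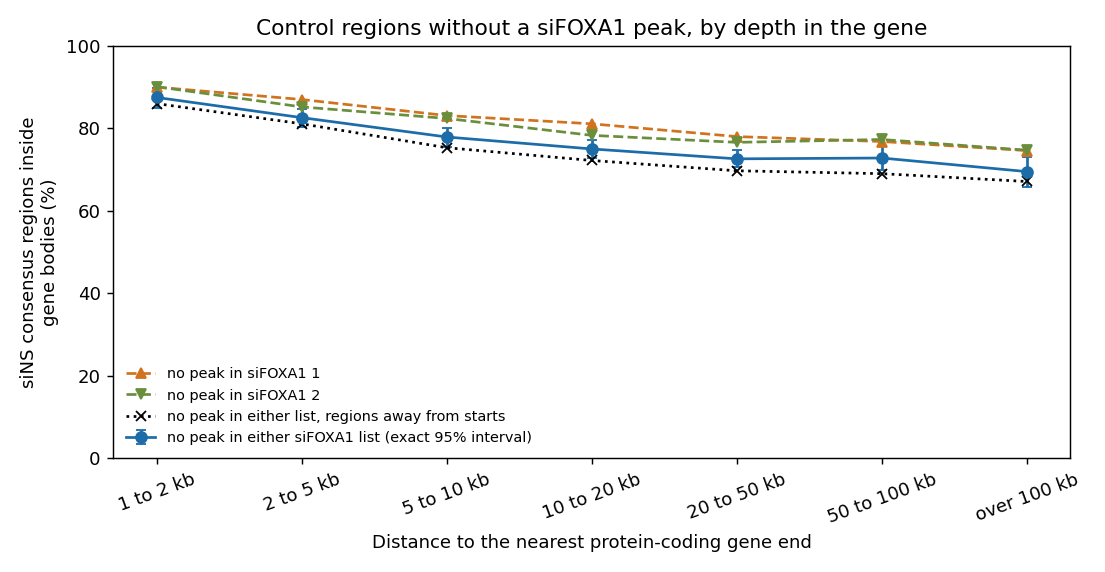
Share (%) of siNS consensus regions inside gene bodies without a siFOXA1 peak, by distance to the nearest protein-coding gene end. Solid line, no peak in either siFOXA1 list with exact 95% binomial intervals, dashed lines, each siFOXA1 list alone, dotted line, regions away from annotated starts. The solid line runs from 87.5% at 1 to 2 kb to 69.5% beyond 100 kb.

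Along the direction of transcription the control-only regions leaned towards the 5′ end. For the 4956 whose host gene has a strand in the start table, 57.1% lay on the 5′ side of the midpoint of the gene (55.8 to 58.5%), against 52.7% of 1517 kept regions (50.2 to 55.3%). Within 10 kb of the outermost start lay 29.1% of them and within 10 kb of the 3′ end 20.3%, against 17.2% and 14.8% of kept regions. The control-only share of siNS consensus regions was 81.2% in the 5′-most of 10 equal stretches of the gene span, lowest at 71.3% in stretch 8, and 75.4% in the last. Over all peaks inside gene bodies, the 5′ share was 50.8% in siNS 1 and 55.0% in siNS 2. It was 51.1% in siFOXA1 1 and 52.8% in siFOXA1 2, so the groups overlapped. These shares cover every peak of a list and not only consensus regions, and the origin of the lean was not tested.

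**Figure D4:**
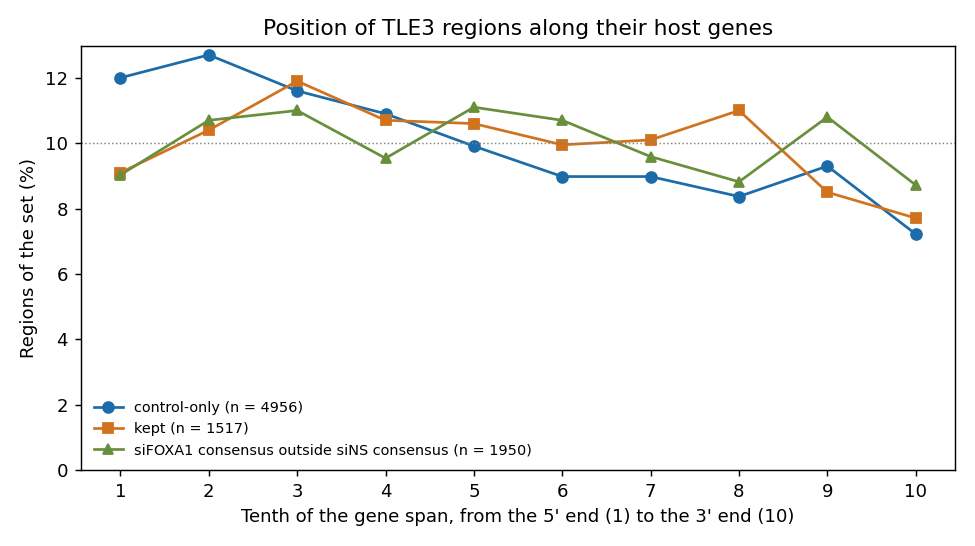
Share (%) of each set of regions in each of 10 equal stretches of the host gene span, from the 5′ end (1) to the 3′ end (10), for genes with a known strand. Lines are control-only regions (n = 4956), kept regions (n = 1517) and siFOXA1 consensus regions outside the siNS consensus (n = 1950), and the dotted line marks an even spread. The control-only line is highest in stretch 2 at 12.7%.

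The regions were spread over 3763 of 19974 protein-coding genes, a background of 18.8%. Of these genes 2485 held 1 control-only region, 1128 held 2 to 4 and 150 held 5 or more. Longer genes held them more often, in 4.7% of genes under 10 kb and 48.4% of genes of 300 kb or more, and the median length was 57.4 kb for genes with a region and 24.2 kb for all genes. In shorter genes nearly all siNS regions were control-only, at 90.3% under 10 kb against 70.8% at 300 kb or more. A siNS consensus region also lay within 1 kb of an end in 63.6% of genes with a control-only region and 53.3% of genes without. The gap was widest in genes under 10 kb, at 65% and 42.1%, and in genes of 100 to 300 kb the order was the reverse, at 59.3% and 62.0%. Of the control-only regions 22.7% lay within 5 kb of another, and no expected share was set beside this value. By chromosome the number per Mb of gene span ran from 2.34 on chromosome 4 to 15.3 on chromosome 19.

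Of the 3763 genes, 38.4% held a siFOXA1 peak elsewhere inside the span, and 21.6% held a kept region. These genes were longer than genes in all. No share of all genes or of genes of like length is set beside these values, so they cannot be called high or low. The nearest peak of either siFOXA1 list was a median 39.9 kb from a control-only region, and 3.19% had one within 1 kb and 21.4% within 10 kb. For control-only regions near gene ends 12.8% had one within 10 kb, and for those between genes 19.3%. The lists separately gave medians of 55.3 kb (siFOXA1 1) and 52.0 kb (siFOXA1 2).

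The 15 genes with the most control-only regions had several transcription regulators among them. GSE1, a component of histone deacetylase complexes, held 20 of them among 37 siNS consensus regions. ZMIZ1, a PIAS-like coactivator gene, held 16 of 22, and BCOR, a corepressor that works with BCL6 and Polycomb, 14 of 15. CASZ1, a zinc finger factor, held 14 of 18 and CCDC85C, a coiled-coil protein of cell junctions, 14 of 16. The Arf GTPase-activating protein gene AGAP1, the zinc finger gene HIVEP3 and LOC124905135 held 12 each. The G protein subunit gene GNG7, the potassium channel gene KCNMA1, MEGF6, the retinoid X receptor gene RXRA and the scaffold gene SHANK2 held 11 each, and the protease gene ECE1 and the glutamate receptor gene GRIK4 10 each. The kept share differed among them: SHANK2 kept none of 11, KCNMA1 11 of 22, and KCNMA1 had a siFOXA1 peak in 21 regions in all. These counts follow the lists used. Without siNS 2 GSE1 held 79 regions and SHANK2 35, and with lists of equal length GSE1 held 7, ZMIZ1 7, BCOR 3, CASZ1 2, CCDC85C 2 and SHANK2 0.

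**Figure D5:**
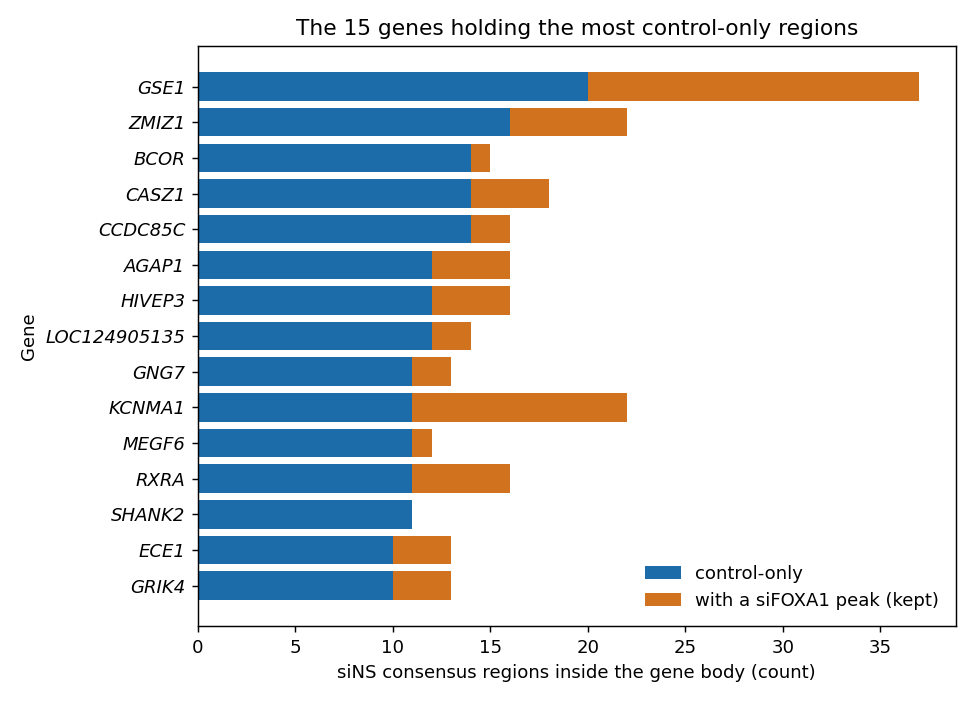
Number of siNS consensus regions inside the gene body for the 15 genes with the most control-only regions. Blue is control-only and orange is kept, that is with a siFOXA1 peak. SHANK2 has 11 regions with none kept, and GSE1 has 37 with 17 kept.

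Of all siNS consensus regions inside gene bodies 76.6% were control-only. In 53 of the 292 genes with at least 5 such regions, every one was control-only. The 10 with the most were SHANK2, IGSF21, LMX1B, LRRFIP1, SH3RF3, CABIN1, IQSEC1, KCNQ1, LASP1 and NDST1, with 7 to 11 regions each. LMX1B, a LIM homeobox factor gene, held 9 (the gene spans chromosome 9, 126613928 to 126701032), scoring from 12.3 to 214 in siNS 1 and from 4.91 to 187 in siNS 2. LASP1, an actin-binding adaptor gene, and NDST1, a heparan sulfate-modifying enzyme gene, had 7 each and no siFOXA1 peak inside the span. At the other extreme BCAS4, CDYL2, CHST11, CREB5 and RAPGEF1 each had 1 control-only region of 5. Over all 292 genes the median share was 80.0%, near the 76.6% of all regions, and the count of 53 genes was not tested against that background.

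Among genes with at least 4 control-only regions, FGFR4 and NHERF2 held the most per length. FGFR4, a fibroblast growth factor receptor, packed 5 regions into 11230 bp, or 44.5 per 100 kb, and NHERF2, a PDZ scaffold of the apical membrane, 5 into 12125 bp, or 41.2 per 100 kb. The 3′-most FGFR4 region (chromosome 5, 177094137 to 177096510) scored 152 in siNS 1 and 76.0 in siNS 2, and the other FGFR4 regions 9.24 to 14.1 and 3.54 to 13.9. Next among these genes came TNS2, a focal adhesion tensin, with 5 regions, VEGFA, the angiogenic growth factor gene, with 4 and HID1 with 5. None of the 5 regions of FGFR4, NHERF2 and TNS2 was kept, and VEGFA and HID1 each kept 1. FGFR4 held no control-only region more than 5 kb from a gene end.

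The strongest control-only region lay in FURIN, the proprotein convertase that matures growth factors and adhesion receptors (chromosome 15, 90873595 to 90874746). It scored 658 and 598, 5583 bp from the outermost start and away from the annotated ones, and the nearest siFOXA1 peak was 80.1 kb off. The other FURIN regions both overlapped annotated starts and were weak, scoring 3.16 and 9.97 for the first, and 25 and 4.91 for the second, in siNS 1 and 2. KLHDC4 followed with 640 and 427, then RET, the receptor of GDNF-family ligands, with 419 and 360, BMP7, a bone morphogenetic protein, with 333 and 343, and ITPA with 329 and 266. The homeobox gene CDX2 scored 265 and 322, GRAMD4 244 and 321, the calcium channel subunit gene CACNG4 307 and 251, SSTR5 289 and 253, and PDIA5, a protein disulfide isomerase gene, 234 and 276. Of these 10 only SSTR5 lay at an annotated start. Their distance to a siFOXA1 peak ran from 4.23 kb (CDX2) to 282 kb (SSTR5).

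RET and GATA3 show how a single gene combined strong and weak regions. RET (chromosome 10) held 4, all control-only and with no siFOXA1 peak in the span. Next to the strongest (43092484 to 43094761), 1 scored 109 and 77.2, 1 scored 11 and 15, and the last, at 4.06 and 3.32, was among the weakest of both lists. GATA3, the zinc finger factor of luminal cells (chromosome 10), held 5 regions, none kept. Those at 8049283 to 8052376 (159 and 77.1) and 8053182 to 8054946 (138 and 53.7) overlapped annotated starts, and the others scored 14.9 to 32.6 in siNS 1 and 6.40 to 28.0 in siNS 2. ESR1, the oestrogen receptor gene, held 4 weaker ones (7.29 to 28.2 in siNS 1 and 3.17 to 26.1 in siNS 2), 1 of them at an annotated start 151293 bp into the gene. Without siNS 1 or siNS 2 GATA3 held 12 or 9 regions and RET 7 in both cases, and with lists of equal length GATA3 held 3 and RET 2.

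TLE genes and their partners were little marked in their own bodies. TLE1 held 2 control-only regions and TLE3 1, scoring 11.5 and 20.7, while TLE4 held none and had 1 region with a siFOXA1 peak. TCF7L2, a Wnt effector that recruits TLE proteins, held 3, all control-only, scoring 11.8 to 13.4 in siNS 1 and 6.83 to 7.98 in siNS 2. FOXP1, a forkhead repressor, held 2. HDAC4, a class IIa deacetylase, held 9 of 11, the strongest (chromosome 2, 239181237 to 239182821) at 202 and 285. Its count was 19 or 23 without siNS 1 or siNS 2 and 3 with lists of equal length. RARA, the retinoic acid receptor, held 2 of 7, both at annotated starts, but 5 with peaks at or above each list's median score, 6 without either siNS library and 0 with lists of equal length. GRHL2 and TRPS1, epithelial factors, held no siNS consensus region inside the body and 5 regions with a siFOXA1 peak each.

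The gene lists were chosen for these cells with earlier results of these data known, so an excess in them is a description only. They are given as counts beside what their gene lengths would give, that is the share of all protein-coding genes in the same length classes. The median number of regions per gene was 0 over all genes. Of the TLE and corepressor genes 20 of 32 held a control-only region (62.5%, exact interval 43.7 to 78.9%), where length classes gave 27.9%, and the median was 1 region per gene. With lists of equal length 7 of the 32 held one (21.9%), where length classes then gave 8.85% and all genes 5.63%.

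Lists of epithelial identity and signalling held control-only regions in 41.2 to 47.1% of their genes, each above its length classes. Luminal identity genes held one in 14 of 34 cases (41.2% against 21.3%), led by GATA3 with 5 and ESR1 and the keratin gene KRT7 with 4 each. Epithelial polarity and junction genes held one in 16 of 34 (47.1% against 25%), led by SHANK2 with 11, TJP3 with 4 and LLGL2 with 3. Receptor tyrosine kinase and ERK feedback genes held one in 18 of 39 (46.2% against 24.2%), with FGFR4 at 5 and the insulin and IGF receptor genes INSR and IGF1R at 4 each. Wnt genes held one in 16 of 36 (44.4% against 22.8%), led by the receptors LGR6 with 6 and LRP5 with 5 and the ligand gene WNT7B with 5. TGF-beta and BMP genes held one in 14 of 33 (42.4% against 24.8%), with 4 each at SKI, a SMAD corepressor, and SMAD3 and 2 at ACVR1. The counts moved with the lists used, and so did the length classes. At equal list length the luminal, junction, kinase, Wnt and TGF-beta genes with one numbered 7, 5, 9, 6 and 5 (20.6, 14.7, 23.1, 16.7 and 15.2%, against 6.51, 7.83, 7.48, 7.1 and 7.8%). Without siNS 1 they numbered 23, 21, 27, 23 and 22, or 61.8 to 69.2% against 36.8 to 43.2%. Without siNS 2 they numbered 22, 22, 24, 22 and 16, or 48.5 to 64.7% against 36.4 to 41.5%. There TGF-beta and BMP genes came nearest to their length classes at 48.5% against 40.8%.

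Hormone response lists held control-only regions in 32 to 50% of their genes. Oestrogen response genes held a control-only region in 14 of 28 cases (50% against 20.1%), with RET at 4 and IGFBP5 and WWC1 at 3. Androgen response and apocrine genes held one in 12 of 29 (41.4% against 21.2%), with 2 each at FASN, the fatty acid synthase gene, and GGT1. Glucocorticoid response genes held one in 8 of 25 (32.0% against 15.5%), with TSC22D3 at 4 and BCL6 and CDKN1A at 2. Of their siNS consensus regions inside genes, 63.2% (24 of 38), 61.3% (19 of 31) and 65% (13 of 20) were control-only, against 76.6% of all. The exact intervals (46.0 to 78.2%, 42.2 to 78.2% and 40.8 to 84.6%) all hold that value. Notch genes held a control-only region in 8 of 32 cases (25% against 18.8%), with JAG2 at 4 and LFNG and MAML3 at 3. Their gene share lay closer to its length classes than those of the hormone lists. In the share of regions they were like those lists, with 64.0% of 25 control-only (42.5 to 82.0%). At equal list length the oestrogen, androgen, glucocorticoid and Notch genes with one numbered 4, 2, 2 and 3. Those were 14.3, 6.9, 8 and 9.38%, against 6.08, 6.5, 4.46 and 5.62% from length classes and 5.63% of all genes. Without siNS 1 they numbered 20, 15, 9 and 14 (71.4, 51.7, 36 and 43.8%, against 34.9, 36.7, 26.8 and 32.1%). Without siNS 2 they numbered 21, 15, 9 and 14 (75, 51.7, 36 and 43.8%, against 34.9, 36, 28.7 and 32.9%). The share of all genes also rose, from 18.8% to 32.3% without siNS 1 and 33.1% without siNS 2.

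Nuclear receptor and coactivator genes held one in 17 of 35 cases (48.6% against 28.9%), led by ZMIZ1 and RXRA, with 4 at ESRRG. Chromatin modifiers held one in 16 of 44 (36.4% against 31.0%), with 6 each at ARID1B, of the SWI/SNF remodellers, and KDM4B, a histone demethylase, and 5 at KDM2B. Neuronal genes, long and taken as a comparison, held one in 14 of 30 (46.7% against 44.0%), with RBFOX3 at 9, CACNA1B at 4 and NRXN3 at 3. NRXN3 also had 14 regions with a siFOXA1 peak. Cell cycle and replication genes held one in 8 of 32 (25% against 16.3%), with 2 each at CDKN1A and MCM5 and 1 at CCND1. At equal list length these 4 lists numbered 8, 12, 3 and 3 genes, or 22.9, 27.3, 10 and 9.38%. Length classes then gave 9.19, 10, 14.5 and 4.61%, and all genes 5.63%, so only the neuronal genes were below their length classes. Without siNS 1 they numbered 24, 29, 26 and 12 (68.6, 65.9, 86.7 and 37.5%, against 49.9, 54.7, 73.9 and 27.6%). Without siNS 2 they numbered 27, 25, 25 and 11 (77.1, 56.8, 83.3 and 34.4%, against 46.9, 49.6, 67 and 30.7%). All genes were at 32.3% without siNS 1 and 33.1% without siNS 2. The control-only share of regions was 72.2% for corepressors and 70.2 to 78.0% for the luminal, junction, kinase, Wnt and TGF-beta lists.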

How the data were processed

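Peak lists of 4 TLE3 ChIP-seq libraries were used, 2 per group, with groups and replicate numbers from the sample titles. The list of siFOXA1 2 carries another number in its name. The 2 input libraries, labelled MDA-MB-454, were not analysed here. The submitters' processing notes name hg38, MACS2, BWA 0.7.5a, SAMtools and Trim Galore, with no settings. How MACS2 used the inputs is not given in the sources used here. Peak scores are values the authors deposited without a definition, and they were ranked only within a list.

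Peaks on chromosomes 1 to 22 and X were merged where they share at least 1 bp. Genes were 19974 protein-coding RefSeq genes (GRCh38.p14). Start windows and strand came from a RefSeq table of promoters that matched 15812 of them (79.2%) and gives several starts for some genes. Chromosome 8 was left out of comparisons with it, which removed 224 regions. Exons, introns and UTRs were not told apart, and planned sequences of the regions themselves were replaced by the start windows, as no genome was used here. A region in overlapping genes counted for each. A motif matched a 300-base window on either strand. No test was run, because regions of the same libraries are not replicates and 2 libraries per group chose them. Intervals are exact 95% binomial ones and cover counting error only. Named genes and regions follow a rule: the genes with the most regions, all regions or the fewest control-only, or the most per length, the 10 strongest regions, 3 genes per list and 15 fixed genes. Some results of the named genes and lists are not reported here. The regions, the 15 gene lists (484 symbols, all matched) and the 20 motifs were chosen with earlier results of these data known. Code was tested on simulated data (6141 of 6141 simulated regions found) and its merged regions equalled those of bedtools 2.31.1. Python 3.11.15, numpy 2.4.6, pandas 2.3.3, scipy 1.17.1 and matplotlib 3.10.9 were used.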

Additional observations from a re-analysis of the deposited data

How the results depend on the processing

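No paired analysis was possible because no result comes from a test. The alternatives were a stricter score, a 50 bp overlap, widened siFOXA1 peaks, lists of equal length, a limit of 5 kb from gene ends, region width in place of score and leaving out each library. With a 50 bp overlap all 9 summary values stayed within set limits, and so did the value ranked by width. The limits were a fixed ratio for counts and the exact interval of the main value for shares. For distance and score percentile the limit was the SD over the siNS libraries. Values below are in the order regions, genes, control-only share, share of the genes with a siFOXA1 peak inside, share of control-only regions at a start, control-only share at and away from starts, and median score percentile.

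With peaks at or above each list's median score they were 3595, 2508, 78.3%, 31.3%, 21.8%, 93.9%, 74.8% and 78.7. With that limit for siNS alone they were 3075, 2276, 67.0%, 42.8%, 23.6%, 86.8%, 62.3% and 77.4. With lists of equal length they were 1341, 1125, 55.8%, 46.4%, 26.0%, 79.0%, 50.2% and 87.9. More than 5 kb from gene ends the control-only share was 73.9%, the share of genes with a siFOXA1 peak 45.5%, the control-only share away from starts 71.0% and the median distance 23.1 kb. Widened siFOXA1 peaks gave a control-only share of 75.6%. Taking a start site within 1 kb, an alternative chosen after seeing the data, gave 21.8% of control-only regions at a start.

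With 1 library left out the number of regions ran from 6479 to 15940, genes from 3863 to 6606, the control-only share from 80.0 to 89.3%, genes with a siFOXA1 peak from 32.7 to 37.7%, regions at a start from 8.5 to 17.5%, and the median percentile from 35.7 to 62.2. The control-only share at starts ran from 89.8 to 92.9%, that away from starts from 78.0 to 89.0%, and the median distance from 11.6 to 16.6 kb. The high counts came without siNS 1 (14424 regions) or siNS 2 (15940), when a peak of a single siNS list counts. In every setting listed the share at starts exceeded that away from them. Unknown depth limits all counts, since a shorter list can hold fewer peaks for technical reasons, and this was not tested.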
